A study of Homo sapiens with 6 samples.

Results

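Complement proteins and their regulators were followed in ARPE-19, a long-used cell line derived from human retinal pigment epithelium, as 9 genes: C1R, C1S, C3, CFB, CFI, CD46, CD55, CD59 and CLU. Their probe sets, the groups of short oligonucleotides that read a transcript on an Affymetrix array, were taken wherever the platform annotation gave 1 of these symbols and no other, which gave 37 of the 49372 probe sets in the table. SATalpha cells received a GFP plasmid that also carries satellite alpha, the tandem repeat found at human centromeres, and GFP cells received the GFP plasmid alone, at 2.5 µg per well in 6-well plates. There were 3 SATalpha arrays and 3 GFP arrays, each from total RNA of transfected cells, without a label on whether the wells came from separate cultures, so the p-values cover the spread among these 6 wells and nothing wider. The labels do not give the time after transfection or the share of cells that took up plasmid. Values are log2 signals, and every difference is SATalpha minus GFP.

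Complement is a cascade of blood and tissue proteins that marks surfaces for removal and can pierce membranes. It starts on bound antibody through the C1 complex, on microbial sugars through lectins, or by slow spontaneous activation of C3, and all routes meet at the cleavage of C3. Cells protect themselves with membrane-bound regulators. In the eye, the retinal pigment epithelium makes several complement components and regulators, and complement proteins are found in the deposits that form beneath it in age-related macular degeneration.

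Array medians lay between 5.29 and 5.32, and 2 arrays of the same group correlated at 0.996 to 0.997 over probe sets, 2 arrays of different groups at 0.995 to 0.996. For the GAPDH controls, the 3′ minus 5′ signal, a measure of RNA integrity, averaged 0.393 ± 0.068 in SATalpha arrays and 0.393 ± 0.046 in GFP arrays (SD, n = 3, two-sided exact permutation p = 1). Levels near the lower end of the scale cannot be set against background, because no detection call was available. A floor of 5.19, the mean level below which the dimmest 40% of genes lay, was used to mark dim probe sets. Of the 37 probe sets, 29 lay above it and 8 below it. Signals of different probe sets are not comparable as amounts, so no order of abundance between the genes is given.

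The protease genes C1R and C1S and the surface regulator CD55 were higher in SATalpha cells, 2 of the 12 CD46 probe sets were higher, CLU was lower, and CD59 was lower in 1 of its probe sets. Each probe set was tested with limma over all 49293 non-control probe sets, with Benjamini-Hochberg adjustment and a threshold of 0.05. Of the 37, 12 were higher, 2 were lower and 23 did not pass. Of all tested probe sets 8.36% passed, 4.18% as higher and 4.19% as lower, and among the 25421 probe sets above the floor 14.3% passed. None of the 8 dim probe sets passed, with 0 at an unadjusted p under 0.05. The differences of the 37 ran from -0.28 to 0.37 with a median of 0.14, against a median of -0.00029 over all probe sets. CD46 supplied 12 of the 37 and CD55 7, so this median leans on these genes. In 19 of the 37 the SATalpha and GFP values did not overlap (16 above, 3 below), against 26.0% of all probe sets, dim ones included. Probe sets of 1 gene can read the same transcript stretch, so the 12 higher ones stand for 4 genes.

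**Figure D1:**
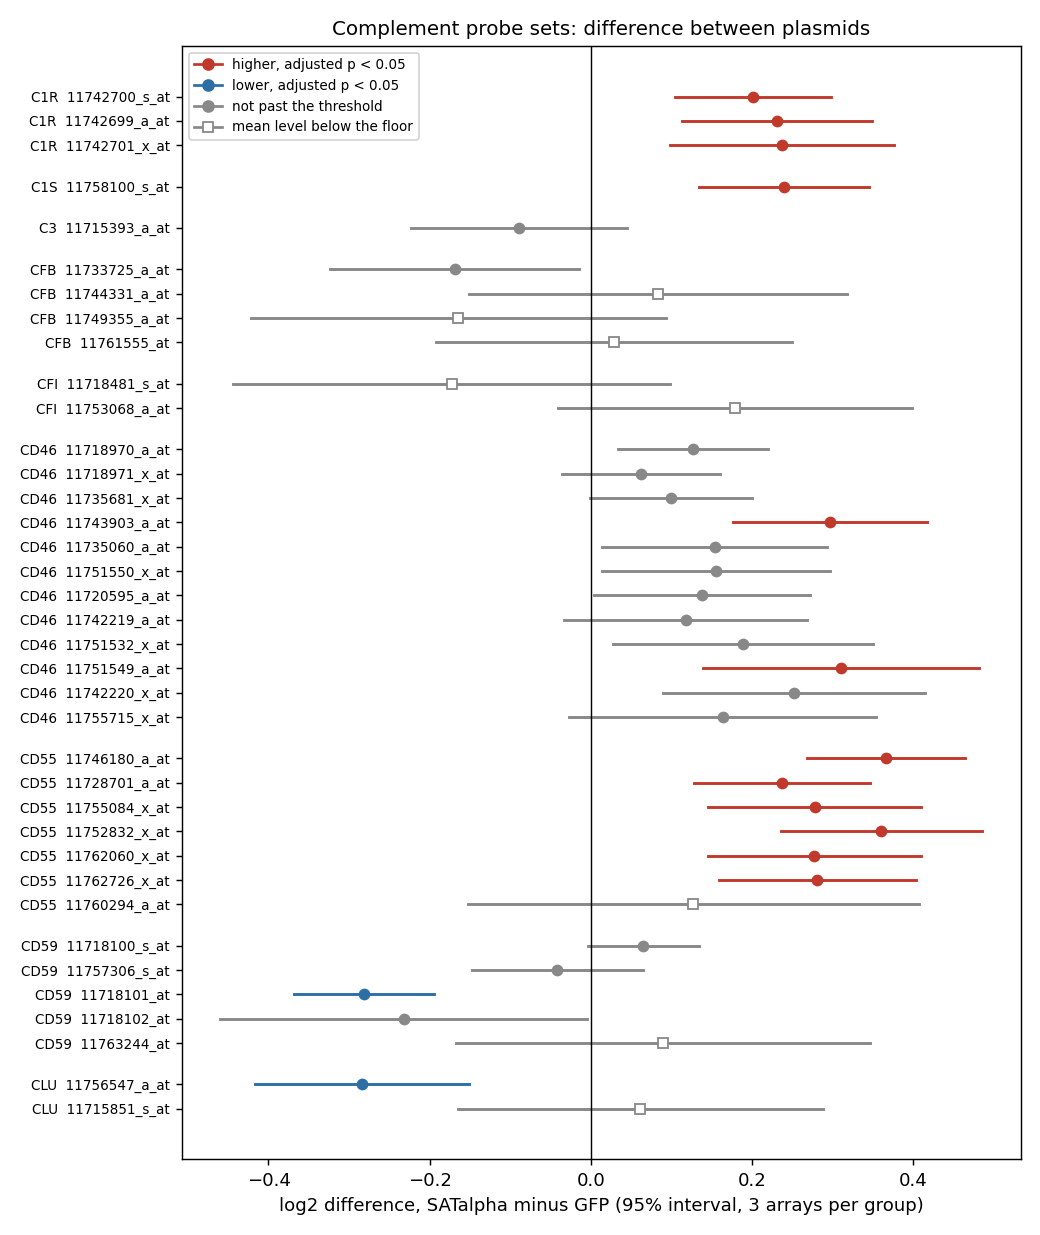
Log2 difference, SATalpha minus GFP, on the horizontal axis for each of the 37 probe sets, grouped by gene, with its 95% interval from limma (3 arrays per group). Red marks the 12 higher and blue the 2 lower probe sets, grey the 23 that did not pass, and open squares the 8 below the floor of 5.19. All red points belong to C1R, C1S, CD46 and CD55.

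C1R and C1S encode the paired serine proteases of the C1 complex: C1r activates itself and cleaves C1s, which then cleaves C4 and C2. They are adjacent genes on chromosome 12, with 0 protein-coding genes annotated between them, and both were higher in SATalpha cells. The brightest C1R probe set (11742700_s_at) read 9.24, 9.19 and 9.20 in SATalpha cells, against 9.01, 9.05 and 8.97 in GFP cells. The single C1S probe set (11758100_s_at) read 9.004, 8.945 and 9.077 in SATalpha cells, against 8.783, 8.744 and 8.779 in GFP cells. For both genes every SATalpha value lay above every GFP value. C1R rose by 0.20 (SE 0.05, limma adjusted p = 0.0125) and C1S by 0.24 (SE 0.05, limma adjusted p = 0.00726), which is 1.15-fold and 1.18-fold.

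The other C1R probe sets, designed on the same transcript record, averaged 8.66 ± 0.03 in SATalpha cells and 8.43 ± 0.09 in GFP cells (11742699_a_at) and 7.63 ± 0.01 in SATalpha cells and 7.39 ± 0.11 in GFP cells (11742701_x_at; SD, n = 3 each). They rose by 0.23 and 0.24, so all 3 C1R probe sets rose by a like amount. The C1S call held whichever array was left out, with differences of 0.21 to 0.27. The call of the brightest C1R probe set was lost without SATalpha replicate 1 (0.19), GFP replicate 1 (0.20) or GFP replicate 3 (0.18), with limma adjusted p of 0.0540 to 0.0727. The call of 11742699_a_at was lost without SATalpha replicate 1 (0.22), GFP replicate 1 (0.20) or GFP replicate 2 (0.21), and that of 11742701_x_at when any array other than GFP replicate 3 was left out (0.20 to 0.24). A probe set listed for both C1S and EMG1 was outside the set. It averaged 3.41 ± 0.08 in SATalpha cells and 3.36 ± 0.15 in GFP cells (SD, n = 3 each) and differed by 0.05 (limma adjusted p = 0.850).

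C3 and CFB form the alternative pathway's enzyme, in which a fragment of factor B carries the protease that cleaves more C3. Neither gene passed the test. The C3 probe set (11715393_a_at) read 7.38, 7.39 and 7.54 in SATalpha cells, against 7.53, 7.51 and 7.54 in GFP cells. SATalpha replicate 3 lay among the GFP values, so the groups overlapped. The difference was -0.09 (95% interval -0.22 to 0.04, limma adjusted p = 0.460). The brightest CFB probe set (11733725_a_at) read 6.47, 6.42 and 6.37 in SATalpha cells, against 6.53, 6.59 and 6.64 in GFP cells. All SATalpha values lay below all GFP values by a small margin, and the difference of -0.17 (95% interval -0.32 to -0.01) did not pass after adjustment (limma adjusted p = 0.185). The other 3 CFB probe sets had mean levels between 3.34 and 4.02, below the floor, and differed by -0.16 to 0.08.

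**Figure D2:**
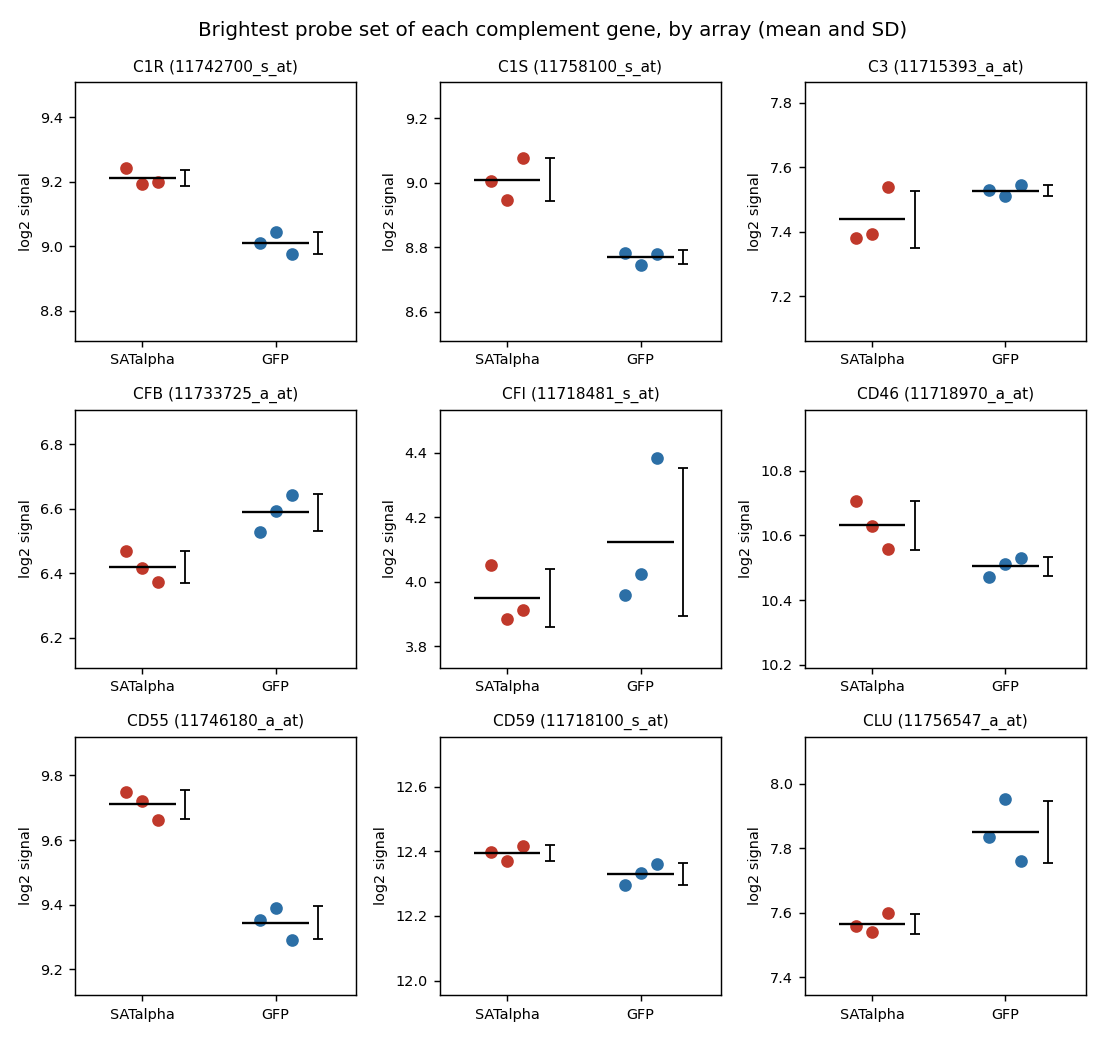
Log2 signal of the brightest probe set of each gene, 1 point per array, SATalpha left and GFP right, with the group mean (line) and SD (bar, n = 3). Every panel spans 0.8 on the log2 scale. The groups are apart for C1R, C1S, CD55 and CLU, lie close for CFB, CD46 and CD59, and overlap for C3 and CFI.

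CD55, the decay-accelerating factor, is a lipid-anchored surface protein that takes apart the enzymes that cleave C3 and C5. Its 2 largest differences were the largest of the 37 probe sets, while its other 4 that passed (0.24 to 0.28) lay below the 2 of CD46 that passed. Its brightest probe set (11746180_a_at) read 9.75, 9.72 and 9.66 in SATalpha cells, against 9.35, 9.39 and 9.29 in GFP cells, with no overlap. CD55 rose by 0.37 (SE 0.05, limma adjusted p = 0.000184), or 1.29-fold. Of its 7 probe sets 6 were higher, by 0.24 to 0.37, and in these 6 all SATalpha values lay above all GFP values. In the background 14.3% of probe sets above the floor passed, and 26.0% of all probe sets, dim ones included, did not overlap. The 6 read 1 gene and are not separate results. The remaining CD55 probe set (11760294_a_at) was dim, with 4.36 ± 0.15 in SATalpha cells and 4.24 ± 0.22 in GFP cells (SD, n = 3 each), and differed by 0.13 (limma adjusted p = 0.645). The brightest probe set passed whichever array was left out, with differences of 0.34 to 0.39. Leaving out SATalpha replicate 1 ended the call of 3 of the 6 (differences 0.26 to 0.29, limma adjusted p of 0.0503 to 0.0720), and leaving out GFP replicate 3 ended it for 2 of them (0.22 in both).

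CD46, the membrane cofactor protein, helps factor I cut C3b and C4b on the cell's own surface. It lies near CD55 on chromosome 1, separated by the complement receptor genes CR2, CR1 and CR1L. All 12 CD46 probe sets lay above the floor and had a higher mean in SATalpha cells, by 0.06 to 0.31 with a median of 0.15, but 2 of the 12 passed the test. In 4 of the 12 the groups did not overlap. Both shares lay near the background, in which 26.0% of all probe sets did not overlap and 14.3% of those above the floor passed. The 26.0% includes dim probe sets, and the share among those above the floor was not computed. The probe set 11743903_a_at read 8.51, 8.54 and 8.54 in SATalpha cells, against 8.22, 8.33 and 8.15 in GFP cells, and rose by 0.30 (SE 0.06, limma adjusted p = 0.00409), a call that held whichever array was left out. The probe set 11751549_a_at read 7.55, 7.39 and 7.73 in SATalpha cells, against 7.26, 7.32 and 7.16 in GFP cells, and rose by 0.31 (SE 0.08, limma adjusted p = 0.0272). That call was lost without SATalpha replicate 1 or 3 (0.31 and 0.23) or GFP replicate 1 or 3 (0.32 and 0.27).

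The brightest CD46 probe set (11718970_a_at) showed a smaller difference. It read 10.71, 10.63 and 10.56 in SATalpha cells, against 10.47, 10.51 and 10.53 in GFP cells, without overlap, and differed by 0.13 (SE 0.04, limma adjusted p = 0.0920). It passed when SATalpha replicate 3 was left out (0.16, limma adjusted p = 0.0206). The probe set nearest the threshold (11742220_x_at) differed by 0.25 (limma adjusted p = 0.0555) and passed without SATalpha replicate 2 (0.30) or GFP replicate 2 (0.31).

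CD59, or protectin, is a small lipid-anchored protein that stops the membrane attack complex from closing. Its probe sets disagreed. The brightest (11718100_s_at) read 12.40, 12.37 and 12.42 in SATalpha cells, against 12.30, 12.33 and 12.36 in GFP cells, just above them, and its difference of 0.06 did not pass (SE 0.03, limma adjusted p = 0.262). The probe set 11718101_at read 9.60, 9.66 and 9.63 in SATalpha cells, against 9.90, 9.91 and 9.91 in GFP cells. The groups were far apart relative to their spread. It fell by 0.28 (SE 0.04, limma adjusted p = 0.000593), a call that held under all 14 alternatives tried, with differences of -0.30 to -0.27.

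The remaining CD59 probe sets did not pass. The probe set 11718102_at read 5.11, 5.12 and 5.40 in SATalpha cells, against 5.54, 5.32 and 5.46 in GFP cells, and differed by -0.23 (limma adjusted p = 0.222). The probe set 11757306_s_at averaged 11.80 ± 0.12 in SATalpha cells and 11.84 ± 0.05 in GFP cells (SD, n = 3 each), a difference of -0.04. The dim 11763244_at differed by 0.09. Within each array, 11718100_s_at stood above 11718101_at by 2.80, 2.71 and 2.79 in SATalpha cells, against 2.39, 2.43 and 2.45 in GFP cells. The gap was wider in every SATalpha array, by 0.35 on average (two-sided exact permutation p = 0.1, the smallest that 3 against 3 arrays allow, and 0.2 adjusted over the 4 such gaps of the brightest CD59 probe set to the others). All SATalpha values of 11718100_s_at lay above the GFP values, and all those of 11718101_at lay below. Their gap therefore had to separate the groups, and its p-value is no further test of the disagreement. The 5 CD59 probe sets were designed on 5 different sequence records, and which transcripts each reads was not tested.

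**Figure D3:**
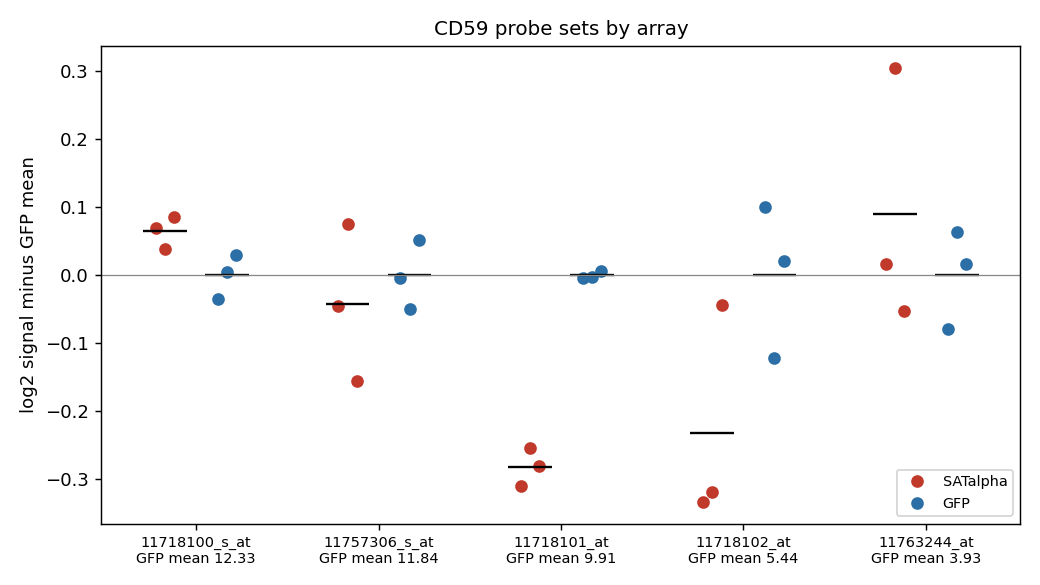
Log2 signal of the 5 CD59 probe sets, each minus its own GFP mean, 1 point per array, with the group mean as a line. The SATalpha points of 11718101_at sit about -0.28 from the GFP mean, and those of 11718100_s_at sit slightly above it at 0.06.

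CFI and CLU act in the fluid around cells. Factor I, encoded by CFI, is the protease that inactivates C3b and C4b. Its 2 probe sets were both below the floor and pointed in opposite directions. The brighter (11718481_s_at) read 4.05, 3.88 and 3.91 in SATalpha cells, against 3.96, 4.02 and 4.38 in GFP cells, a difference of -0.17 (95% interval -0.44 to 0.10, limma adjusted p = 0.485). The other (11753068_a_at) read 3.15, 2.98 and 3.12 in SATalpha cells, against 2.94, 2.89 and 2.88 in GFP cells, a difference of 0.18 (95% interval -0.04 to 0.40, limma adjusted p = 0.349), with all SATalpha values just above all GFP values. No difference in CFI was detectable at these signals.

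Clusterin, encoded by CLU, is a secreted chaperone that also binds the forming membrane attack complex. Its brighter probe set (11756547_a_at) read 7.56, 7.54 and 7.60 in SATalpha cells, against 7.84, 7.95 and 7.76 in GFP cells. All SATalpha values lay below all GFP values, and CLU fell by 0.28 (SE 0.06, limma adjusted p = 0.0107). The call was lost without SATalpha replicate 1 (-0.28, limma adjusted p = 0.0515) or GFP replicate 2 (-0.23, limma adjusted p = 0.0612). The other CLU probe set (11715851_s_at) was dim, at 2.89 ± 0.12 in SATalpha cells and 2.83 ± 0.06 in GFP cells (SD, n = 3 each), and differed by 0.06.

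The calls of single probe sets depended on how limma pooled the variance. Without the mean-variance trend, 2 of the 37 passed, the brightest CD55 probe set and CD59 11718101_at. By the unmoderated test 1 passed, CD59 11718101_at, and the background was 2.68% and 0.655% of all probe sets.

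With 1 probe set per gene, the brightest, and the dimmest 40% of genes left out, 8 of the 9 genes were tested among 10879, CFI being below the floor. In this fit 4 were higher and 1 was lower, against 20.8% of all tested genes that passed in either direction. The median difference of the 8 was 0.096, against -0.02 over all tested genes. CD55, C1S, C1R and CD46 were higher and CLU was lower. C1R and CD55 passed under all 16 alternatives tried for genes. In the fit over all probe sets, the brightest C1R probe set kept its call under 7 of 13 alternatives and the brightest of CD55 under 13 of 14. In the gene fit CD46, at 0.13, barely passed (limma adjusted p = 0.0487) and kept the call under 4 of 16 alternatives. It lost the call without SATalpha replicate 1 or 2 (0.09 and 0.13) or any 1 of the GFP replicates (0.11 to 0.14). C1S lost the call by the unmoderated test alone, and CLU by that test and as the mean of its probe sets (-0.11). CD59, at 0.06, did not pass and turned to -0.08 as the mean of its probe sets and to -0.28 when probe sets ending in _s_at or _x_at were left out, which leaves 11718101_at as its brightest.

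The rest of the complement system was mostly dim in these cells. Of 53 other complement genes, 47 had a probe set with a single symbol, 34 of these lay below the floor, and 13 were tested. Of the 13, 2 were higher, 1 was lower and 10 did not pass, with a median difference of 0.03, against a median of -0.02 over all tested genes and the 20.8% that passed among them. All 7 terminal components, which build the membrane attack complex, and the alternative pathway genes CFD and CFP were below the floor. The 10 that did not pass included C1QA, C1QB and MASP2, which start the cascade, and SERPING1, the inhibitor of C1r and C1s. SERPING1 averaged 5.65 ± 0.08 in SATalpha cells and 5.48 ± 0.03 in GFP cells (SD, n = 3 each), a difference of 0.17 (limma adjusted p = 0.179). C4A and C4B, the substrates of C1s, were read by probe sets listed for several genes, and none of these 4 passed.

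Complement receptor genes made up the 2 that were higher. ITGAX, a subunit of the receptor for cleaved C3b, was read by 11761777_x_at. That probe set averaged 7.08 ± 0.07 in SATalpha cells and 6.83 ± 0.05 in GFP cells (SD, n = 3 each), and rose by 0.24 (SE 0.07, limma adjusted p = 0.0193). Its call was lost without SATalpha replicate 1 (0.25), GFP replicate 1 (0.24) or GFP replicate 3 (0.22). The 3 other ITGAX probe sets were dim and differed by -0.30 to 0.11. Among them 11750033_a_at, designed on the same sequence record as 11761777_x_at, had a mean of 3.19. The receptor gene ITGB2 was below the floor, at 3.26 in SATalpha cells and 3.29 in GFP cells. Whether 11761777_x_at reads ITGAX alone was not tested. C3AR1, the receptor for the C3a fragment, averaged 6.45 ± 0.17 in SATalpha cells and 6.14 ± 0.14 in GFP cells (SD, n = 3 each). It rose by 0.31 (SE 0.10, limma adjusted p = 0.0381), although the groups overlapped, and the call was lost without SATalpha replicate 2 or 3 (0.28 and 0.24) or GFP replicate 1 or 3 (0.32 and 0.23).

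SUSD4, a membrane protein with complement control modules, was the gene that fell. It read 6.38, 6.36 and 5.94 in SATalpha cells, against 6.54, 6.60 and 6.52 in GFP cells, and fell by 0.32 (SE 0.10, limma adjusted p = 0.0397). The SATalpha replicates were uneven: without SATalpha replicate 3 the difference was -0.18, and the call was also lost without any 1 of the GFP replicates (-0.34 to -0.30). In the fit over all probe sets, 2 of the 6 SUSD4 probe sets passed, the dim 11757607_s_at and 11739464_a_at, which fell by 0.90 and 0.58 (limma adjusted p of 0.000163 and 0.00538). The brightest SUSD4 probe set and that of C3AR1 did not pass in that fit (limma adjusted p of 0.0728 and 0.0714). C1QBP, a mitochondrial protein that can bind C1q, was bright and differed by 0.04 (limma adjusted p = 0.646).

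**Figure D4:**
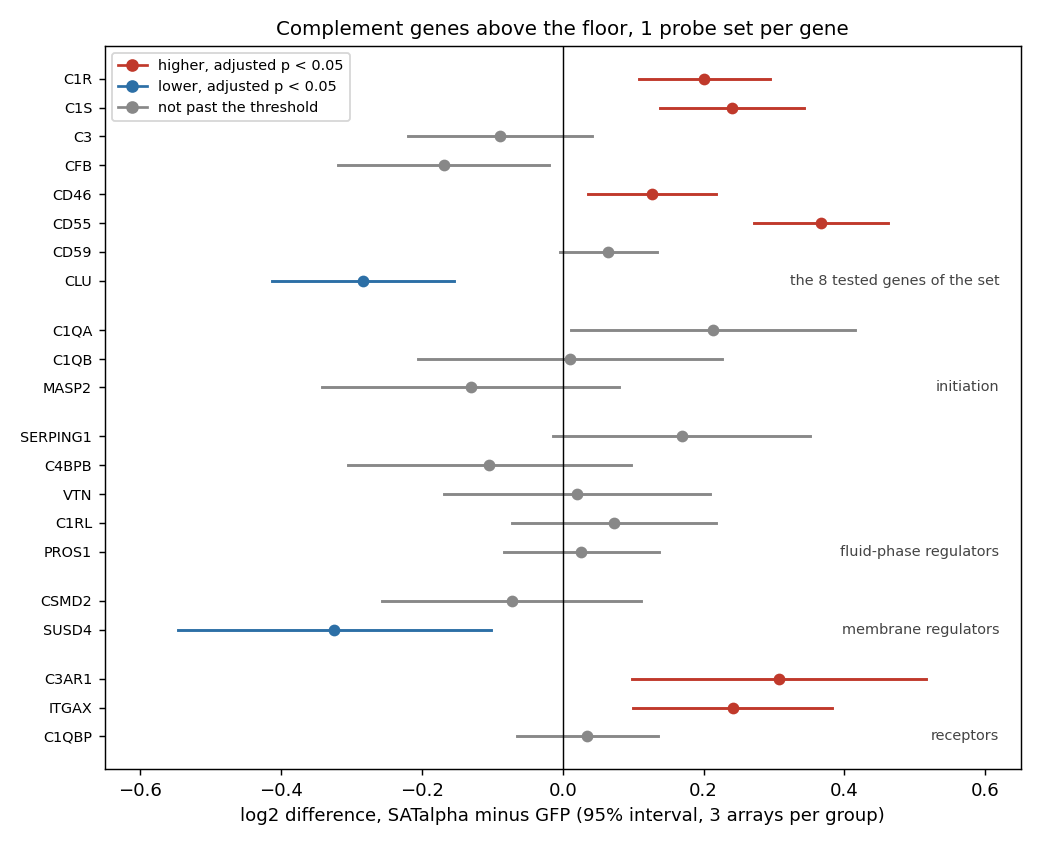
Log2 difference, SATalpha minus GFP, with its 95% interval from limma, for the 21 complement genes above the floor, 1 probe set per gene, grouped by role. Red marks genes that were higher (C1R, C1S, CD46, CD55, C3AR1 and ITGAX), blue those that were lower (CLU and SUSD4), and grey the 13 others.

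Because several complement receptors are typical of myeloid cells, markers of other cell types were read in the same arrays. Of 8 macrophage and microglia markers, 3 lay above the floor (CD68, TYROBP and CSF1R) and none passed in the gene fit, with PTPRC at 2.30 in SATalpha cells and 2.44 in GFP cells. The summed linear signal of the 8 was 461 to 469 in SATalpha cells and 475 to 484 in GFP cells. This sum leans on the brightest marker, CD68, which averaged 8.19 in SATalpha cells and 8.25 in GFP cells and did not pass (limma adjusted p = 0.445). The share of CD68 in the sum was not computed. Of 5 endothelial markers 3 and of 6 fibroblast markers 1 lay above the floor, and 0 passed. Their sums were 141 to 162 in SATalpha cells and 140 to 150 in GFP cells for endothelium, and 112 to 123 in SATalpha cells and 118 to 124 in GFP cells for fibroblasts. Of 12 retinal pigment epithelium markers 8 lay above the floor, among them OTX2 and MITF, but RPE65, BEST1 and RLBP1, which define the mature epithelium, did not. KRT8 and KRT18 fell, by 0.13 and 0.21. The other 6 above the floor did not pass, with differences of -0.18 to 0.10, of which 2 (EZR and PMEL) were positive and 4 negative. The sum of the 12 was 9514 to 9774 in SATalpha cells and 10250 to 10665 in GFP cells, but KRT8 and KRT18 made up 68.0% to 72.9% of it. Without them the sum was 2894 to 3049 in SATalpha cells and 2793 to 2913 in GFP cells, which overlapped. The part of these shifts in the complement differences was not tested. In RNA from whole wells, a change in the share of cells that express a gene and a change per cell cannot be told apart.

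Promoter windows from RefSeq (GRCh38.p14), 250 bases before to 50 after a start, were matched for 6 of the 9 genes in 11 windows. C1S, C3 and CLU were not matched. The windows of C1R and CD55 are shown because these genes rose, and that of CFB because it held matches to the NF-kB, interferon and STAT motifs given below. Each run is the 250 bases before the start, read 5′ to 3′ on the gene's strand, and capitals mark motif matches on either strand.
C1R (chr12:7092446-7092695, minus strand): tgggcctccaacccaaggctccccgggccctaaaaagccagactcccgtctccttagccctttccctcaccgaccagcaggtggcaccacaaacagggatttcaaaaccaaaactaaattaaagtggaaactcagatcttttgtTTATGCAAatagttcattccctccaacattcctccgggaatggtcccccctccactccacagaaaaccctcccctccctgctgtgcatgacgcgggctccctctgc
C1R (chr12:7091894-7092143, minus strand): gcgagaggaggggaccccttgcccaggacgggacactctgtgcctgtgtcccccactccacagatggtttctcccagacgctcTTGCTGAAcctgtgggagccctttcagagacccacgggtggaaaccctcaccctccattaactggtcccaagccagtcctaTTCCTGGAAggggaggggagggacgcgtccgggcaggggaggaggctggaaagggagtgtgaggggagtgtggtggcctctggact
CFB (chr6:31945845-31946094, plus strand): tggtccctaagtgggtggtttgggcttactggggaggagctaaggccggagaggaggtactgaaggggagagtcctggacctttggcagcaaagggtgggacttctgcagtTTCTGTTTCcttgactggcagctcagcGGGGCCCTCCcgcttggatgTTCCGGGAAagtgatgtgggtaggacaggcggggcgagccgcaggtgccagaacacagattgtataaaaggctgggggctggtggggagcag
CD55 (chr1:207321428-207321677, plus strand): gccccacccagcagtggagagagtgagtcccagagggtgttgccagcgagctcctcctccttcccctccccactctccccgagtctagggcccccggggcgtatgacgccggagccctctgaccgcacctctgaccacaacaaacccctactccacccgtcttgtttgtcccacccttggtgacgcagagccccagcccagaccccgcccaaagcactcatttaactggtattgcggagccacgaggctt

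The motifs searched on both strands were that of NF-kB by name, the interferon response element core GAAANNGAA, the STAT site TTCNNNGAA, the AP-1 site TGANTCA and the C/EBP site TTGCNNAA. Among 35116 windows of the same length, 11.3% held the NF-kB motif, 8.11% the interferon core, 7.66% the STAT site, 7.71% the AP-1 site and 10.5% the C/EBP site. The CFB window held 1 match each of NF-kB (first base at -112 from the start), the interferon core (-139) and the STAT site (-92). The C1R window shown first held a C/EBP match at -106, and the window of the other C1R start held a C/EBP match at -167 and a STAT match at -86. The CD55 window, both CD46 windows and the CFI window held none of these letters. The 4 CD59 windows held STAT, C/EBP or AP-1 matches. A match describes letters only and is no measured site.

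Of the 5 complement genes of the set that passed in the gene fit, CD55 had the largest difference. Over all tested genes, the 3 genes whose values over the 6 arrays, each centred on its own mean, lay nearest to it were GLUD1, ZBTB43 and ASXL1. Their root mean square distances were 0.030, 0.032 and 0.034 on the log2 scale. They differed by 0.33, 0.37 and 0.38, so the likeness is that of their group difference.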

How the data were processed

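Total RNA of 6 transfections was measured on Affymetrix 3′ expression arrays. The deposited values are log2 signals, a base inferred from their range, and each quartile differed by at most 0.048 between arrays. MAS5 and RMA appear in the submitters' processing notes, with no role, version or setting stated, and no genome build is named. If RMA made the values, differences of dim transcripts may be understated. The number of arrays limits the precision: the median standard error of a probe set's difference was 0.10.

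From the deposited table, 79 control probe sets were left out, and a linear model with empirical Bayes variances and a mean-variance trend (limma 3.58.1, R 4.3.3) was fitted to the other 49293, with Benjamini-Hochberg adjustment. A second fit used the brightest of each gene's probe sets with a single symbol, leaving out the lowest 40% of 18132 genes. The current symbols of the 9 genes needed 0 updates. The text names all 9 genes with their probe sets, other complement genes past the threshold (up to 8, or the brightest until 4 were named) and the 3 genes most like the member with the largest difference. SERPING1, the other complement genes that did not pass, and the marker genes are named outside that rule. The members and gene lists were chosen with earlier results of these data known. Replicate numbers gave no sign of pairing: correlations of same-numbered deviations from the group means were -0.01, -0.12 and -0.14. Those of differently numbered samples ran from -0.04 to 0.16, and no other pairing was tested. The probe-set fit was tested on simulated data for this comparison (49293 probe sets, 200 of them changed, each with a mean of at least 7): 28.8% of the 1.2-fold changes and 88.0% of the 1.5-fold changes were recovered. In the real data 4123 probe sets passed, so these rates hold for the simulated setting and need not hold for the real fit. Alternatives were other normalizations, a replicate block, each array left out, other variance settings, other filters and other summaries of probe sets.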

Additional observations from a re-analysis of the deposited data

How the results depend on the processing

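Of the calls reported, 0 of 312 recomputed differences changed sign, 224 kept the call and 88 lost it. Except for C3AR1, the groups of these calls did not overlap, so leaving out an array could not turn the sign. The replicate block, the fit without the mean-variance trend, the unmoderated test and the filters on mean level reuse the same difference. The count of 0 is therefore no test of the sign under these settings. Differences that turned sign, none of them past the threshold in the main test, were CD59 11763244_at without SATalpha replicate 2 (-0.018, with up to 0.16 when other arrays were left out), CD59 11757306_s_at without SATalpha replicate 3 (0.015, with down to -0.10), C1QBP without SATalpha replicate 2 (-0.0018, with up to 0.085), and CD59 in the gene fit (-0.28 without _s_at and _x_at probe sets, past the threshold, and -0.080 as the mean of its probe sets).

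The 14 probe sets that passed (12 higher, 2 lower) became 2 (1 higher, 1 lower) with no mean-variance trend, 1 (0 higher, 1 lower) by the unmoderated test, and 7 (5 higher) without _s_at and _x_at probe sets, when 20 of the 37 were left. Leaving out 1 array gave 6 to 14 (5 to 12 higher, 1 to 2 lower), with 6 without SATalpha replicate 1. The share of all probe sets that passed moved as well, from 8.36% in the main fit. It was 2.68% with no trend, 0.655% by the unmoderated test and 7.68% of those left without _s_at and _x_at probe sets. With 1 array left out it was 3.99% to 8.77%, and 4.37% without SATalpha replicate 1. Of complement genes, 8 passed (5 of the 9 and 3 others). This became 5 (1 other) with no trend or no filter on genes, 2 (2 of the 9, 0 others) by the unmoderated test, and 1 other with the lowest 60% of genes left out. Leaving out 1 array gave 4 to 6, with 0 to 2 others and 4 to 5 of the 9. Of all tested genes 20.8% passed in the main fit, 16.4% with no trend, 11.3% with no filter and 6.59% by the unmoderated test. The share was 26.4% with the lowest 60% left out and 11.2% to 23.2% with 1 array left out. The cause of these shifts was not tested. Quantile normalization and median centring each gave 15 probe sets, and array weights gave 16. Among all tested probe sets, 4334 passed with quantile normalization, 4215 with median centring and 5481 with array weights, against 4123 in the main fit.

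With the replicate number as a block, 10 probe sets passed (8 higher, 2 lower), 4 complement genes passed and 0 others, and over all probe sets the calls went to 2328, against 4123 without it. The calls lost were those of all C1R probe sets and of CD46 11751549_a_at (limma adjusted p of 0.0550 to 0.0864). Of all tested genes 11.9% passed with the block, against 20.8% without it. The replicate numbers share no stated origin, and the deviations of same-numbered samples from their group means did not correlate positively. Signal over background could not be judged, which limits what the 8 dim probe sets can show.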
